A study of Mus musculus with 6 samples.

Results

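The genes described here carry glucose into the cell, through glycolysis to lactate, and through the pentose phosphate pathway. The set is a list of 35 named genes in pathway order, out of 46603 genes counted. Its rule names genes by function and uses no measured value, but it was drawn up with earlier results of these data known. All 35 were found in the count tables and passed the filter on low counts that left 15069 genes for testing. The study sequenced RNA of whole marrow from 6 mice of the C57/Bl6 strain, all 8 months old. Of these, 3 lack nuclear myosin 1 (NM1 KO, the knockout mice) and 3 are wild type (NM1 WT), and no further allele or agent is named. Nuclear myosin 1 is a nuclear form of the class I myosin that Myo1c encodes. Marrow was spun from the long bones of a single mouse for each library and no cell type was sorted. In such bulk RNA, fewer cells of a type and less RNA per cell cannot be told apart.

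Glycolysis splits glucose to pyruvate in the cytosol and yields ATP without oxygen. The pentose phosphate pathway branches off after the first phosphorylation and yields NADPH, which feeds the oxidative burst and the antioxidant systems of phagocytes, and ribose for nucleotides. Many steps have isozymes from separate genes that differ in regulation and in the cells that use them. Mature red cells have no mitochondria and live on glycolysis, and neutrophils also rely on it heavily, so whole marrow mixes cell types with unlike demands.

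Depth differed by genotype, at 21101616 to 22618802 counts for the knockout mice and 15145052 to 17580660 for the wild-type mice. Myo1c, whose summed isoforms do not check the nuclear form itself, had 73.8, 59.1 and 59.7 CPM (counts per 1e6 counts, scaled with TMM factors) in NM1 KO 1 to 3 and 89.8, 115 and 102 CPM in NM1 WT 1 to 3. The labels give no sex. Ddx3y, a Y-linked gene, was at 82.0 to 105 CPM in NM1 KO 1, NM1 KO 2 and NM1 WT 2 and at 0 counts in the other 3 libraries, so each genotype mixed both states. NM1 WT 2 stood apart from its group: its log2 CPM correlated at 0.969 with NM1 KO 1 and at 0.957 with NM1 WT 1 and with NM1 WT 3, across genes, which are not independent replicates.

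A single gene of the pathway passed the test in NM1 KO marrow, and it fell: Hk2, one of the hexokinases that trap glucose in the cell by phosphorylating it. Hk2 fell from 159 ± 37.3 to 70.6 ± 17.9 CPM (SD, n = 3 each), to 44.5% of the wild-type mean. The other 34 members did not pass an adjusted p of 0.05 in edgeR's quasi-likelihood test, Benjamini-Hochberg adjusted over all tested genes. Of these, glucose phosphate isomerase (Gpi1) and the pentose phosphate enzyme Pgd had the lowest p among members with lower values in NM1 KO, and the lactate carrier gene Slc16a1 the lowest among those with higher values. The 1 called member of 35 (2.86%) stands beside 0.776% of all tested genes called in either direction, 0.186% called lower and 0.591% called higher.

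Hk2 is the member the result rests on, so the bases before its start site are shown with those of its sister genes Hk1 and Hk3, from RefSeq's GRCm38.p6 annotation. Each run covers the 250 bases upstream of the first listed start, read 5′ to 3′ on the gene's own strand, which is the minus strand for all 3 genes: chr6:82774455-82774704 for Hk2, chr10:62379909-62380158 for Hk1 and chr13:55021386-55021635 for Hk3. Capitals mark ACGTG on either strand (read as CACGT on the opposite one), the core that hypoxia-inducible factor and E-box binding proteins such as MYC can share.
Hk2: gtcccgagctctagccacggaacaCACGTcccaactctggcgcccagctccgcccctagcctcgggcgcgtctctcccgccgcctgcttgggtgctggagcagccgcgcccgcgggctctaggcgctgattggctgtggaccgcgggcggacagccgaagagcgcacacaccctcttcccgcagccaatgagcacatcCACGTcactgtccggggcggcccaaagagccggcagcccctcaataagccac
Hk1: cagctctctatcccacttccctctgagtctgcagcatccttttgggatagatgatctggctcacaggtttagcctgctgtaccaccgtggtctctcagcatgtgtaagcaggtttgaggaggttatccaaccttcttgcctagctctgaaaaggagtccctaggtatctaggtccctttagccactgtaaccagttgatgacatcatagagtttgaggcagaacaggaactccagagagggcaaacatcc
Hk3: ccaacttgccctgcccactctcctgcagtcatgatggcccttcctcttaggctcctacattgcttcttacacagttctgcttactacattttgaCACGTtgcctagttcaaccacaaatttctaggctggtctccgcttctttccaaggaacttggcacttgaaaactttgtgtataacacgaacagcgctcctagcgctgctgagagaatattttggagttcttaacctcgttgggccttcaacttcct
The Hk2 window held the core 2 times, centred 224 and 50 bases before the start, and the Hk3 window held it 1 time, 154 bases before. The Hk1 window held 0 matches, and a further Hk1 start in RefSeq also held 0. More than 1 match was not particular to Hk2. In their first listed windows Pgk1 and Slc16a3 held 2 each and Ldha 5, where 2 CACGTG palindromes count on both strands. None of these members passed the test. The 3 printed windows differed in base composition, with 69.6% G and C for Hk2, 49.6% for Hk1 and 47.2% for Hk3. The median was 52.4% over 32851 windows of all genes. The window of the further Hk1 start had 62.8%, so the Hk1 value depends on the start taken. RefSeq windows were matched for 34 of the 35 members. The core was present in 13 of these 34 genes (38.2%) and in 18.5% of all 27025 genes with a window. Members had more windows per gene (52 for 34 genes) than all genes, which raises a share per gene; per window the core was in 17 of 52 (32.7%) and in 16.6% of all windows. The longer palindrome CACGTG, which contains the core, was present in 5 of 34 members (14.7%) and 6.86% of all genes, and in 9.62% of member windows and 6.02% of all windows. Member windows were richer in G and C (median 58.8%) than all windows, and the part of composition in these shares was not tested. A match is a string of letters and no evidence of binding.

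**Figure D1:**
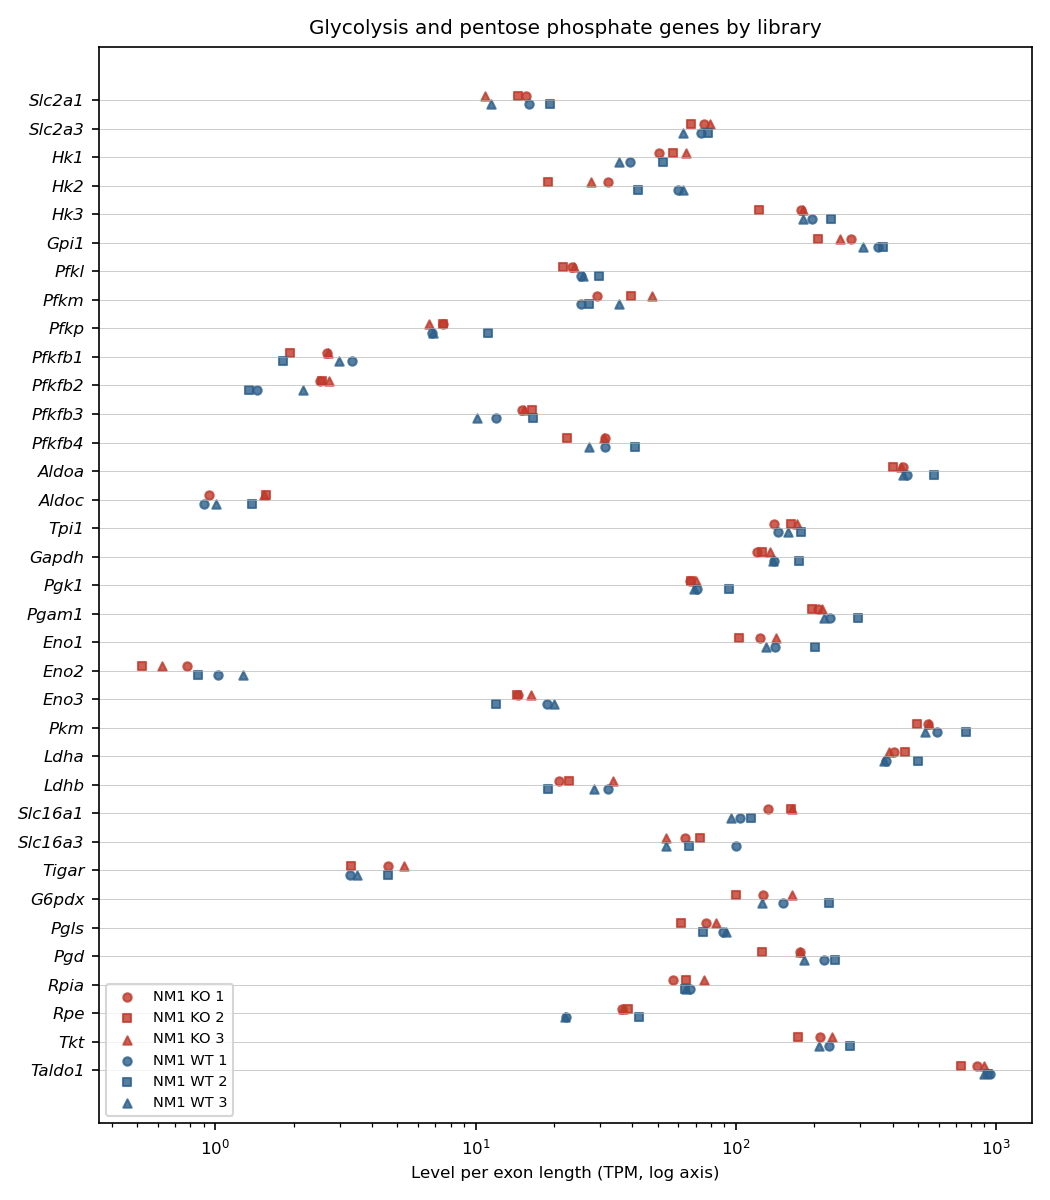
Level of each of the 35 genes in every library, as TPM (length-scaled level, log axis), in pathway order from glucose uptake to the pentose phosphate enzymes. Red marks are NM1 KO and blue marks NM1 WT, with a circle, square or triangle for mouse 1, 2 or 3; levels run from 0.520 TPM for Eno2 in NM1 KO 2 to 942 TPM for Taldo1 in NM1 WT 1.

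Levels between genes were compared per length, as TPM computed from the counts and the exon bases of each gene. The exon bases include retained introns where annotated, so ranks depend on that length. By CPM in NM1 WT, which takes no account of length, Pkm (1513) and Gpi1 (1066) stood above Taldo1 (967). In NM1 WT marrow Taldo1 (transaldolase) stood highest at 923 ± 24.1 TPM, before Pkm (pyruvate kinase, 629 ± 121 TPM), Aldoa (aldolase A, 490 ± 76.6 TPM), Ldha (lactate dehydrogenase A, 416 ± 74.3 TPM) and Gpi1 (342 ± 31 TPM). The intervals of 1 SD across mice overlapped between Pkm and Aldoa, between Aldoa and Ldha and between Ldha and Gpi1. Within each of the 3 NM1 WT libraries, however, the TPM order Pkm, Aldoa, Ldha, Gpi1 was the same. The order was not tested. At the other end lay Eno2, the neuronal enolase (1.05 ± 0.213 TPM), Aldoc, the brain aldolase (1.1 ± 0.255 TPM), and the PFKFB genes Pfkfb2 and Pfkfb1 (1.65 ± 0.447 and 2.71 ± 0.798 TPM). Eno2 rested on 24 to 44 counts a library and Aldoc on 22 to 50, so their fold changes are imprecise. Gapdh, at 151 ± 20.7 TPM, ranked 13th among the 35. The annotation holds 171 pseudogenes at least 90% identical to Gapdh over 200 bases or more, and reads shared with such copies can be split or dropped. Of these pseudogenes 159 were in the count tables, with counts summing to 26%, 22% and 27.3% of Gapdh's own in NM1 KO 1 to 3 and 33%, 13.7% and 35.6% in NM1 WT 1 to 3. The low share in NM1 WT 2 sets that library apart here too.

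Glucose enters marrow cells through facilitative carriers. Slc2a3 (GLUT3, a high-affinity carrier) took 82.3 ± 2.18% of the summed level of both carrier genes in NM1 WT and 84.4 ± 3.14% in NM1 KO, and Slc2a1 (GLUT1, the carrier of many dividing cells) the remainder. Slc2a3 had 247, 220 and 259 CPM in knockout mice and 270, 260 and 217 CPM in wild-type mice, with a log2 fold change of -0.04 (SE 0.13). Slc2a1 had 24.7, 22.9 and 17.1 CPM against 28.4, 31.2 and 19.2 CPM (log2 fold change -0.28, SE 0.21, adjusted p = 0.542 in edgeR's quasi-likelihood test), and the genotypes overlapped for both genes.

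The hexokinases differed among themselves. Hk2 lies on chromosome 6 (82725025 to 82774454, minus strand, GRCm38) and is induced in many dividing or activated cells. It had 86.5, 51.3 and 74.1 CPM in NM1 KO 1 to 3 and 181, 116 and 180 CPM in NM1 WT 1 to 3. The genotypes did not overlap, and NM1 WT 2 was the lowest wild-type library. The log2 fold change was -1.17 (SE 0.21, adjusted p = 0.0354 in edgeR's quasi-likelihood test), rank 61 by p among all tested genes. The call ended without NM1 KO 2 (adjusted p = 0.0955), NM1 KO 3 (0.0509), NM1 WT 1 (0.155) or NM1 WT 3 (0.0943), in limma-voom (0.0529) and with Ddx3y level as a covariate (0.063), while the log2 fold change stayed between -1.35 and -0.98 over 14 alternatives. Within the libraries that have Y-linked counts Hk2 was -0.75 on the log2 scale, and within those that lack them -1.28, with 1 or 2 mice an arm and no test. No near-identical copy of Hk2 and no overlapping exon of another gene was found in the annotation.

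Hk3, the hexokinase of myeloid cells, was the most abundant of the 3 per length in every library, though by CPM Hk1 was above it in NM1 KO 2. Hk3 had 295, 204 and 300 CPM in knockout mice against 365, 392.1 and 320 CPM in wild-type mice. These groups did not overlap either, though Hk3 (log2 fold change -0.43, SE 0.16) missed the threshold (adjusted p = 0.206). Hk1, the form that red cells and brain use, pointed the other way, with 195, 221 and 246 CPM in knockout mice and 169, 206 and 146 CPM in wild-type mice, log2 fold change 0.35 (SE 0.15, adjusted p = 0.273), and NM1 WT 2 lay inside the NM1 KO range. Of the summed hexokinase level per length, Hk2 made up 12.3%, 9.55% and 10.1% in the NM1 KO libraries and 20.3%, 12.9% and 22.4% in the NM1 WT libraries. Hk1 made up 23.9 ± 4.68% in NM1 KO and 14 ± 1.80% in NM1 WT, and Hk3 65.4 ± 3.38% and 67.4 ± 3.20%. The Hk2 and Hk1 shares did not overlap between genotypes, whereas the Hk3 share did. A two-sided exact permutation test of 3 against 3 mice gave p = 0.1 for Hk1 and Hk2, the smallest value this design allows, and 0.34 after Benjamini-Hochberg adjustment over 17 shares. The Hk1 difference was 9.92 percentage points per length and 15.0 points with raw counts.

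**Figure D2:**
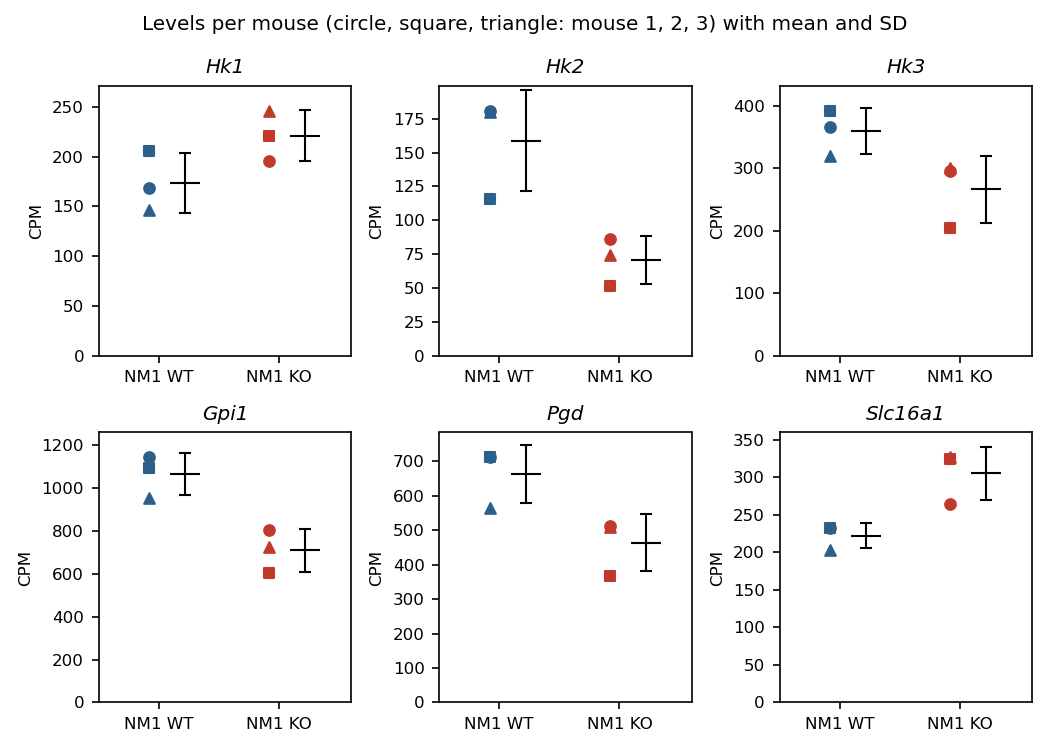
CPM of Hk1, Hk2, Hk3, Gpi1, Pgd and Slc16a1 in each mouse (circle, square and triangle for mouse 1, 2 and 3), with the mean and SD of each genotype beside the points; every axis starts at 0. Hk2, Hk3, Gpi1 and Pgd lie lower in all NM1 KO mice than in any NM1 WT mouse, Slc16a1 lies higher, and Hk1 overlaps.

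Gpi1, which turns glucose phosphate into fructose phosphate, had the next smallest p of the set. It had 804, 603 and 725 CPM in knockout mice and 1146, 1097 and 954 CPM in wild-type mice, a log2 fold change of -0.58 (SE 0.14) at an adjusted p of 0.0848 in edgeR's quasi-likelihood test. The groups did not overlap, and NM1 WT 3 and NM1 KO 1 were the closest pair. Exons of an opposite-strand gene cover 11.5% of the exon bases of Gpi1, and the strand setting of the counting is not given in the sources used here.

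Phosphofructokinase commits sugar to glycolysis. Its liver-type gene Pfkl had 70.7, 65.1 and 71.7 CPM in knockout mice and 85.5, 91.3 and 82.8 CPM in wild-type mice without overlap (log2 fold change -0.32, SE 0.12, adjusted p = 0.201), and its platelet-type gene Pfkp had 45.5, 45.3 and 40.0 against 46.0, 69.1 and 44.1 CPM with overlap. The muscle-type gene Pfkm, also used by red cells, had 44.3, 59.4 and 71.6 CPM in knockout mice and 43.0, 41.8 and 57.0 CPM in wild-type mice, so the ranges overlapped. Exons of other genes cover 10.75% of its exon bases. Pfkm held 55.7 ± 6.33% of the phosphofructokinase level per length in NM1 KO and 45.4 ± 6.19% in NM1 WT, and Pfkl 33.7 ± 4.53% and 41.8 ± 3.46% (two-sided exact permutation p = 0.2 each). These shares depend on the length used, and by CPM Pfkl was above Pfkm in every NM1 WT library. With raw counts the share difference was 8.43 percentage points for Pfkm and -5.88 for Pfkl (two-sided exact permutation p = 0.2 and 0.1, unadjusted).

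The PFKFB enzymes set the level of the fructose bisphosphate that activates phosphofructokinase. Pfkfb4 was the main isozyme, with 65.6 ± 1.70% of the level per length in NM1 WT and 57.5 ± 5.08% in NM1 KO. Pfkfb3, the inducible form with the strongest kinase side, held 25.3 ± 1.83% and 32.2 ± 5.03%. Neither share overlapped between genotypes, at the smallest possible exact permutation p of 0.1 (two-sided, 0.34 adjusted over the 17 shares). NM1 KO 2 had the largest Pfkfb3 share, at 38.0% against 29.1% and 29.5% in the other knockout mice, and without it the genotype difference went from 6.88 to 3.97 percentage points for Pfkfb3 and from -8.12 to -5.19 for Pfkfb4. By CPM neither gene separated the genotypes: Pfkfb4 had 69.1, 49.2 and 68.0 CPM in knockout mice and 77.6, 92.2 and 63.8 CPM in wild-type mice, and Pfkfb3 had 51.4, 56.3 and 51.9 against 45.9, 58.1 and 36.8 CPM. Pfkfb2, the heart form, had 8.27, 8.38 and 8.91 against 5.29, 4.52 and 7.54 CPM without overlap (log2 fold change 0.56, SE 0.28, adjusted p = 0.342), and 19.5% of its exon bases are shared with exons of other genes. Pfkfb1, the liver form, had 4.87, 3.50 and 4.88 against 6.79, 3.36 and 5.77 CPM, on 58 to 112 counts.

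**Figure D3:**
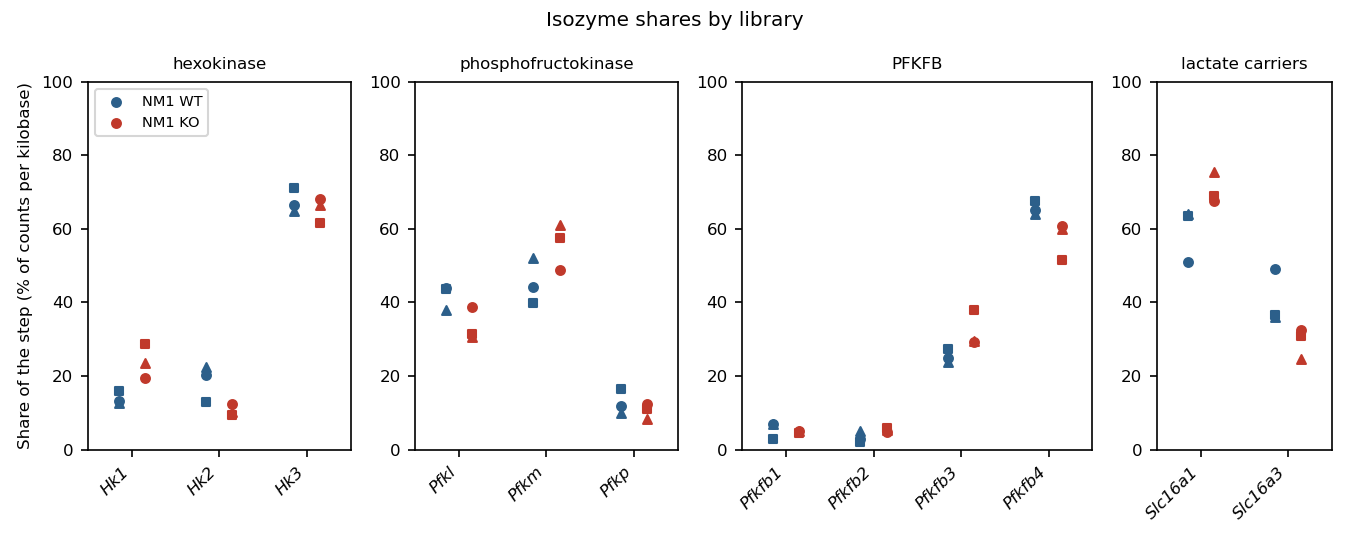
Share of each isozyme in the summed counts per kilobase of its step (percent, 0 to 100), for each NM1 WT library (blue) and NM1 KO library (red), with circle, square and triangle for mouse 1, 2 and 3. Hk1, Pfkfb3 and Slc16a1 hold larger shares in every NM1 KO library, and Hk2, Pfkfb4 and Slc16a3 smaller ones.

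The enzymes of the lower pathway cut the sugar and harvest ATP, and none of them passed the test. Aldoa had 578, 529 and 563 CPM in knockout mice and 669, 776 and 612 CPM in wild-type mice. Gapdh had 226, 235 and 251 against 293, 333 and 274 CPM, and Pgk1 (phosphoglycerate kinase, X-linked) 67.4, 67.9 and 70.6 against 80.2, 96.9 and 74.4 CPM. For all 3 genes, every NM1 KO library lay below every NM1 WT library and NM1 WT 2 was the highest. With the counts of its pseudogenes added, Gapdh was at 284, 287 and 319 against 389, 379 and 372 CPM, still without overlap but with NM1 WT 1 the highest. Pgam1 (phosphoglycerate mutase) had 186, 176 and 191 against 230, 270 and 207 CPM, and Pkm 1234, 1123 and 1241 against 1496, 1764 and 1278 CPM, again without overlap. Their log2 fold changes were -0.30 (SE 0.13) for Aldoa, -0.34 (SE 0.12) for Gapdh, -0.29 (SE 0.13) for Pgk1, -0.36 (SE 0.13) for Pgam1 and -0.33 (SE 0.14) for Pkm, and the adjusted p in edgeR's quasi-likelihood test ran from 0.199 for Gapdh to 0.298 for Pgk1. Tpi1 (triosephosphate isomerase) had 196 ± 19.9 and 212 ± 11.6 CPM and overlapped.

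Eno1, the enolase of most tissues, had 299, 250 and 344 CPM in knockout mice and 383, 497 and 336 CPM in wild-type mice, so NM1 WT 3 lay inside the NM1 KO range (log2 fold change -0.45, SE 0.17, adjusted p = 0.209). It made up 88.5 ± 1.08% of enolase per length in NM1 KO and 89.2 ± 4.22% in NM1 WT. Eno1b, a copy 99.5% identical to Eno1 over 1736 bases, had 4.18, 2.03 and 2.72 CPM in knockout mice and 10.5, 2.43 and 9.71 CPM in wild-type mice. Reads shared by the pair can be split or dropped, and their assignment was not checked. Eno3, the muscle enolase, had 11.4, 11.3 and 12.8 against 16.6, 9.62 and 16.7 CPM, and Eno2 had 1.65, 1.11 and 1.31 against 2.44, 1.85 and 2.89 CPM, without overlap for Eno2 alone (log2 fold change -0.81, SE 0.48). Eno3 lies 4.99 Mb from Myo1c on chromosome 11, and Aldoc, at 1.39, 2.30 and 2.25 against 1.49, 2.09 and 1.57 CPM, lies 2.67 Mb from Myo1c. Neither Eno3 nor Aldoc passed, with log2 fold changes of -0.27 (SE 0.24) and 0.20 (SE 0.48).

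Lactate dehydrogenase turns pyruvate to lactate, and the monocarboxylate carriers pass lactate across the membrane. Ldha had 605, 664 and 577 against 632, 767 and 589 CPM, and Ldhb, the heart form, 14.8, 16.1 and 23.8 against 25.5, 13.7 and 21.5 CPM, both with overlap. Ldha held 94.1 ± 1.80% of the step per length in NM1 KO and 93.8 ± 2.26% in NM1 WT. Slc16a1 (MCT1, the carrier of red cells and many other tissues) had 264, 325 and 327 CPM in knockout mice and 232, 232 and 203 CPM in wild-type mice. Every NM1 KO value was higher, with a log2 fold change of 0.46 (SE 0.13) that did not pass (adjusted p = 0.123 in edgeR's quasi-likelihood test). Slc16a3 (MCT4, the export carrier of strongly glycolytic cells) had 153, 175 and 129 CPM against 268, 162 and 138 CPM, with NM1 WT 1 far above all others. Slc16a1 therefore held 67.5%, 69.0% and 75.3% of both carriers per length in NM1 KO and 51.0%, 63.3% and 63.9% in NM1 WT, without overlap (two-sided exact permutation p = 0.1, the smallest possible, 0.34 adjusted over 17 shares). Without NM1 WT 1 the difference in this share went from 11.2 to 6.99 percentage points.

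The oxidative branch of the pentose phosphate pathway makes NADPH. Pgd, phosphogluconate dehydrogenase, had 514, 368 and 510 CPM in knockout mice and 713, 713 and 566 CPM in wild-type mice without overlap (log2 fold change -0.52, SE 0.16, adjusted p = 0.142). G6pdx, the X-linked gate of the pathway, had 177, 139 and 227 CPM in knockout mice and 236, 323 and 186 CPM in wild-type mice, with overlap (log2 fold change -0.46, SE 0.21, adjusted p = 0.303). Among libraries with Y-linked counts its log2 difference was -1.03, and among those without it was 0.10. Each arm held 1 or 2 mice and no test was made. Pgls, the lactonase between them, had 126 ± 18.8 and 155 ± 22.4 CPM with overlap, and 20.6% of its exon bases are shared with another gene. For G6pdx 13.6% of the exon bases are shared with an opposite-strand gene.

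The non-oxidative branch shuffles sugars between pentoses and glycolysis. Taldo1 had 827, 715 and 870 CPM in knockout mice and 1036, 932 and 934 CPM in wild-type mice without overlap, and Tkt (transketolase) 701, 573 and 771 against 847, 933 and 737 CPM with overlap. Their log2 fold changes were -0.27 (SE 0.13) and -0.30 (SE 0.15), at adjusted p of 0.318 and 0.329 in edgeR's quasi-likelihood test. Rpia (ribose phosphate isomerase) had 158 ± 21.4 and 168 ± 11.6 CPM. Rpe (ribulose phosphate epimerase) had 51.2, 54.1 and 51.5 CPM in knockout mice and 35.0, 61.0 and 33 CPM in wild-type mice. NM1 WT 2 alone lay above the NM1 KO range, and without it Rpe was higher by 0.62 on the log2 scale at an adjusted p of 0.0477 in edgeR's quasi-likelihood test. Exons of an opposite-strand gene cover 17.9% of the exon bases of Rpe. Tigar, the phosphatase that turns sugar toward the pentose pathway, had 7.26 ± 1.64 and 6.68 ± 0.941 CPM.

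**Figure D4:**
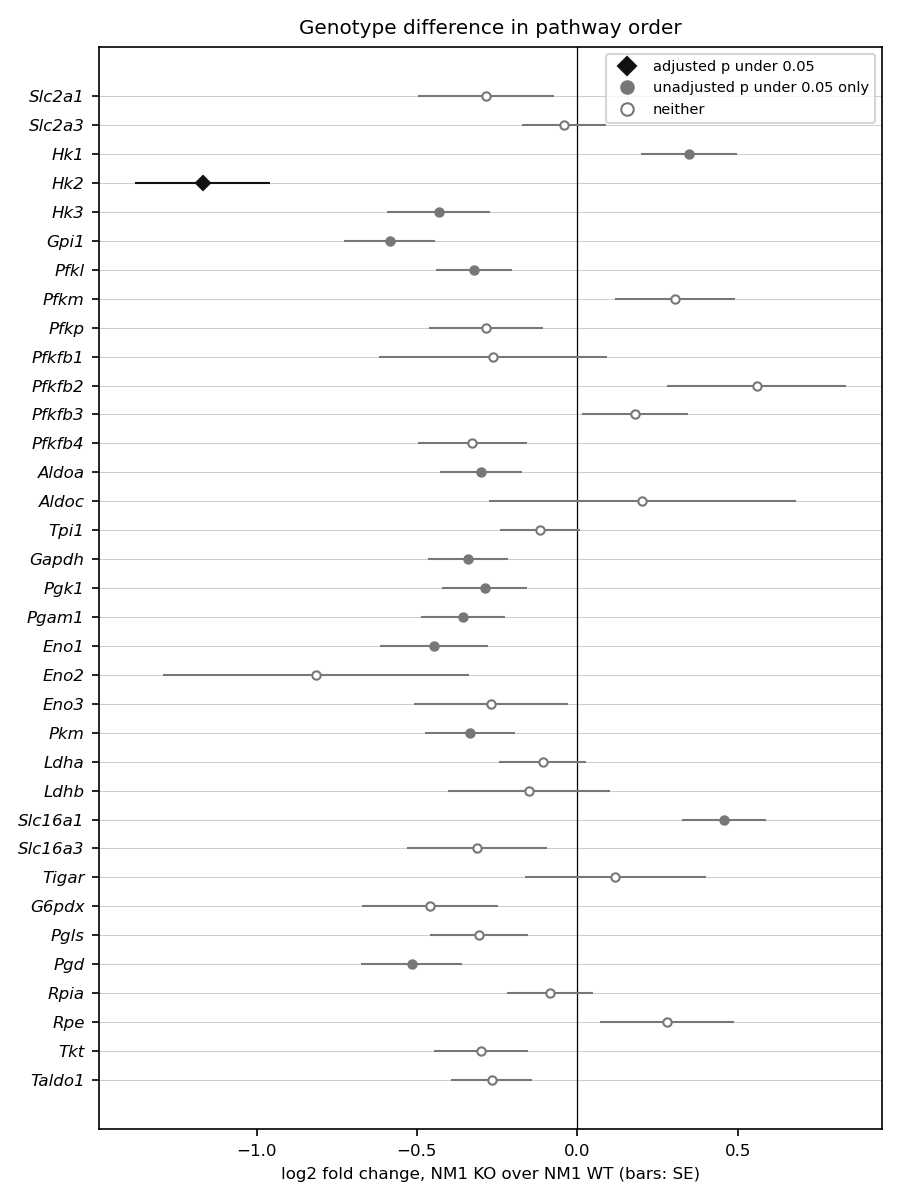
Log2 fold change of NM1 KO over NM1 WT for the 35 genes in pathway order, with SE as bars. The black diamond is Hk2, the single gene with an adjusted p under 0.05; filled circles have an unadjusted p under 0.05 alone and open circles neither; 27 points lie left of 0 and 8 right of it.

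Across the set, 27 of 35 members had a negative log2 fold change (77.1%), against 49.8% of all tested genes. The median was -0.28, against 0.0019 over all tested genes. Values lay lower in all NM1 KO libraries for 12 members (34.3%, against 9.75% of all tested genes), and higher in all of them for 2, Pfkfb2 and Slc16a1 (5.71%, against 10.8%). At an unadjusted p under 0.05, 11 members were lower and 2 higher, Hk1 and Slc16a1, against 8.32% and 8.44% of all tested genes. These members share libraries and are correlated, so their number is a description of 6 mice. The members' summed level was 8307, 7502 and 8643 CPM in NM1 KO 1 to 3 and 10226, 10869 and 8889 CPM in NM1 WT 1 to 3. NM1 WT 3 was close to NM1 KO 3, and the ranges did not overlap.

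NM1 WT 2 was the highest of the 6 libraries for 18 of 35 members, among them Aldoa, Tpi1, Pgk1, Pgam1, Eno1, Pkm, Ldha and, where its pseudogenes are not added, Gapdh, whereas it was highest for 17.2% of all tested genes. NM1 KO 2 was the lowest for 16 members, against 21.6% of all tested genes. Without NM1 WT 2 the median was -0.20, with 6 members lower and 4 higher at an unadjusted p under 0.05. Without NM1 KO 2 it was -0.19, with 4 lower and 1 higher. All-gene shares at that p were not computed for these fits. Of all genes, 206 passed the adjusted threshold as lower and 138 as higher without NM1 WT 2. Without NM1 KO 2 these were 12 and 28, against 28 and 89 with all 6 libraries. Within the 3 libraries that have Y-linked counts 27 members were lower in NM1 KO, and within the 3 that lack them 22 were, 19 of them in both. By these sets of libraries, Eno1 had -0.86 and -0.07, Pkm -0.58 and -0.16 and Tkt -0.55 and -0.04 on the log2 scale, with and without Y-linked counts. The NM1 WT arm with Y-linked counts is NM1 WT 2 alone, so the values with them rest on that library. The NM1 KO arm without them is NM1 KO 3 alone. The difference between the sets was not tested.

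Genes around the pathway gave no call. None passed among 4 tested further glucose and fructose carriers, 8 further glycolytic isozymes, 5 carriers of lactate and pyruvate or their partners, 12 genes of the pyruvate dehydrogenase complex and its kinases, 10 further pentose phosphate and ribose genes, 11 glycogen genes, 21 regulators, 15 other hypoxia-responsive genes and 14 genes of NADPH and glutathione use. In these 9 lists the medians ran from -0.14 for the glycogen genes to 0.47 for the further isozymes. The further isozymes included Pklr, the pyruvate kinase of red cells and liver (21.5 ± 6.01 CPM in NM1 KO, 13.2 ± 2.42 in NM1 WT, adjusted p = 0.173), and Bpgm, the bisphosphoglycerate mutase of red cells (1603 ± 84.3 and 1324 ± 15.5 CPM, 0.266), all adjusted p here being from edgeR's quasi-likelihood test. Among pentose and ribose genes, Pgm2l1, a sugar phosphate mutase, had 53.5 ± 9.87 and 32.9 ± 2.78 CPM (0.0752) and Prps1l3, a ribose phosphate pyrophosphokinase gene, 22.4 ± 1.98 and 13.6 ± 4.09 CPM. Gclc and Gclm, the subunits of the enzyme that starts glutathione synthesis, had 113 ± 19.3 and 71.4 ± 12.9 CPM (adjusted p = 0.093) and 260 ± 33.6 and 192 ± 38.9 CPM.

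In the remaining lists the genes of smallest p were as follows. The glycogen synthase gene Gys1 had a log2 fold change of -0.41 and the glycogen phosphorylase gene Pygl of -0.40. The carrier partners Emb and Bsg had -0.37 and 0.17, and the carriers Slc2a6 and Slc2a8 -0.44 and 0.19. Pdk4, a kinase that shuts pyruvate dehydrogenase, had 1.65 at 2.79 ± 1.55 CPM in the knockout mice, and Dld, a subunit of that complex, 0.31. Among regulators, Mycn had 1.44 and Arrdc4, which removes glucose carriers from the membrane, 0.51. Of the hypoxia-responsive genes, Bnip3l, a mitophagy receptor also active in red cell maturation, had 0.37 and Mif, a cytokine gene, -0.38.

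Markers of the marrow's cell types differed between the genotypes beside these values, and edgeR's quasi-likelihood test called some of them. All 20 neutrophil markers had negative log2 fold changes (median -0.47) and 0 passed. Their summed level was 41733 to 54454 CPM for knockout and 53815 to 73132 CPM for wild-type mice, and Lcn2 and Padi4, granule and chromatin-modifying genes of neutrophils, had the smallest p (-0.72 and -0.76). Of 20 erythroid markers 18 were positive (median 0.32) and 0 passed, with sums of 83487 to 89284 and 68051 to 93244 CPM and the smallest p for Car2, a carbonic anhydrase of red cells (0.63). Of 15 eosinophil and basophil markers 7 fell (sums of 1047 to 1528 and 2680 to 4211 CPM), led by Ear6, Prg3, Ear2 and Prg2, with log2 fold changes of -1.95 to -1.59.

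Of 20 platelet and megakaryocyte markers 15 rose (sums of 3136 to 6503 and 1771 to 2100 CPM), led by Mpig6b, Clec1b, Mmrn1 and Tubb1 (1.31 to 1.77). Of 20 stromal and bone markers 7 rose (1763 to 3030 and 923 to 1089 CPM), led by Col1a2, Cxcl12, Kitl and Lepr (1.25 to 2.08). Of 16 tested skeletal muscle markers 7 rose (158 to 184 and 49.5 to 61.3 CPM), among them Tnnt3, Tpm2, Tnni2 and Mb, which was at 0 in all wild-type libraries, while Tnnc2 was at 0 in all 6. Fewer passed elsewhere. Of 16 endothelial markers 1 passed (Esam, 1.17, while Robo4 had 1.36 and did not pass). All 16 were positive, however (median 0.80), with sums of 282 to 400 and 182 to 271 CPM. Of 15 monocyte and macrophage markers 2 passed (Mrc1, 1.46, and Vcam1, 1.39, which is also in the stromal and bone list). Of 15 T and NK markers 1 passed (Cd4, 1.18, while Nkg7 had -0.45), and of 15 B cell markers 0 (Rag1, 1.07, and Rag2, 1.16). The part of these cell types in the levels of Hk2 and the other members was not tested.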

How the data were processed

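The authors deposited raw read counts per Ensembl gene, 1 table per mouse. The submitters' processing notes name the aligner HISAT2 2.0.4, the counter HTSeq, Trimmomatic 0.36, SAMtools 0.1.19 and FastQC, with GRCm38 and mm10. Annotation release, strand and read-pair settings were not given in the sources used here. Nearly all low counts were even (2417 genes with a count of 2 and 6 with a count of 1 in NM1 KO 1), so both mates of a pair appear to have been counted, and halved counts were tried. Of 46603 genes, 46091 matched GENCODE M21 (GRCm38), which gave symbols, positions and exon lengths.

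Genotype was the only term in the quasi-likelihood test of edgeR 4.0.16 under R 4.3.3 (filterByExpr defaults, TMM factors), fitted to all 15069 tested genes, with adjusted p under 0.05 as the threshold. Across libraries 14.7 to 23.0 counts make 1 CPM. Isozyme shares used counts per kilobase of exon, whose length includes retained introns where annotated, and exact permutation tests. Copies of members were found with BLAST of transcripts. The fit was checked on simulated data, where it called 52.1% of 96 genes changed 2-fold and 83% of 100 changed 4-fold. Of its 137 calls 4 were false. Changes smaller than 2-fold were not simulated, so a member that did not pass may still differ. DESeq2 1.42.0, limma-voom (limma 3.58.1) and the other alternatives are given at the end. All 35 members are accounted for, with values in every library where the unadjusted p was under 0.05 or isozymes are compared. From each further list up to 4 called genes of smallest p are named, or the 2 of smallest p where fewer than 2 passed. A marker gene that this rule names is not reported here. The members and lists were chosen with earlier results of these data known. Each library is a separate mouse.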

Additional observations from a re-analysis of the deposited data

How the results depend on the processing

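The number of members past the threshold moved with the test. It was 1 lower and 0 higher in the main analysis, 3 lower (Hk2, Gpi1, Pgd) and 1 higher (Slc16a1) with DESeq2, 4 lower (these and G6pdx) and 1 higher (Slc16a1) with no low-count filter, and 0 lower with limma-voom or with Ddx3y level as a covariate. It ran from 0 to 1 lower and from 0 to 1 higher when each library was left out in turn. RLE or total-count scaling and halved counts left Hk2 as the only member called. Over all genes, 394 were lower and 400 higher with DESeq2, 14 and 23 with limma-voom, 517 and 621 with no low-count filter, 14 and 43 with the Ddx3y covariate and 192 and 229 with the replicate block, against 28 and 89. With single libraries left out, 10 (without NM1 WT 3) to 206 (without NM1 WT 2) genes were lower and 15 (without NM1 WT 1) to 156 (without NM1 KO 3) higher.

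With the replicate block, 2 members were lower (Hk2 and Gpi1). Same-numbered mice share only a number, and the design states no pairing. The deviations from group means correlated at 0.0636, 0.115 and 0.0609, the best match for each library. Deviations within a group depend on each other, so these small values do not show pairing.

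Of the 35 members, 30 kept their direction in all 14 alternatives. Slc2a3 was at 0.0013 with total-count scaling and Ldhb at 0.10 with the Ddx3y covariate. With single libraries left out, the log2 fold change ran from -0.14 to 0.026 for Slc2a3, from -0.19 to 0.016 for Ldha, from -0.39 to 0.053 for Ldhb, from -0.50 to 0.026 for Slc16a3 and from -0.035 to 0.29 for Tigar. The share of its step, NM1 KO minus NM1 WT in percentage points, then ran from -0.535 to 1.57 for Ldha, from -2.29 to 1.72 for Eno1, from -1.44 to 2.34 for Eno3 and from -2.02 to 0.0071 for Pfkfb1. The cause was not tested. Low counts limit Eno2, Aldoc, Pfkfb1, Pfkfb2 and Tigar, whose SE ran from 0.28 to 0.48.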
